A study of Mus musculus musculus x Mus musculus castaneus with 12 samples.

Results

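The genes *Fam183b*, *Fat2*, *Gjb1*, *Pdgfc*, *Spp1* and *Stat4* were examined in RNA-seq data from mouse ES cells in which the histone demethylase gene *Kdm6a* had been deleted. These 6 of 24346 genes were selected on their measured fold change, being higher in the *Kdm6a* KO clones than in wt in each of 2 reciprocal crosses. The difference between KO and wt is therefore the basis of the choice, and it is described here for each clone and each allele without a test. The wt cells of the crosses and the deletion types are compared by values and intervals without a p, since their samples had also entered the choice. Tests were kept for the alleles within wt cells, which the choice did not use.

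All 12 samples were F1 hybrid ES cells that hold a chromosome set from C57BL/6 J (BL6) and a set from *Mus castaneus* (cast). BC cells had a BL6 mother and CB cells a cast mother. Wild type (wt) cells were represented by 2 samples each of male BC, female BC and male CB. Of the *Kdm6a* KO clones, all male, 3 were BC (ΔE1, ΔE3, ΔP4) and 3 were CB (ΔE2.5, ΔE2.7, ΔP2.1). In the ΔE clones an exonic stretch of *Kdm6a* was deleted by CRISPR/Cas9 and in the ΔP clones the promoter with the first exons. Per the study, ΔE1 and ΔE3 share their breakpoints and an off-target deletion of *Sh3kbp1*, *Map3k15* and *Pdha1*, so they are not independent editing events, and the CB wt line carries an actin-GFP transgene. The transgene, the cell line and the cross cannot be told apart in any comparison between BC and CB wt. All lines were grown with serum and LIF on feeder fibroblasts, which were depleted before RNA was taken. Clones that went through the editing procedure without losing *Kdm6a* were not analysed here, so the deletion and the derivation of a clone cannot be told apart.

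KDM6A, also called UTX, removes methyl groups from lysine 27 of histone H3, the mark laid down by Polycomb repressive complex 2, and it also works within enhancer complexes independently of that activity. The 6 genes belong to different pathways. *Spp1* encodes osteopontin, a secreted phosphoprotein that binds integrins and CD44. *Pdgfc* encodes the growth factor PDGF-CC, which is activated by proteolysis and signals through PDGF receptors. *Stat4* encodes the transcription factor that relays interleukin 12 and type I interferon signals in lymphocytes. *Gjb1* encodes connexin 32, a gap junction subunit of hepatocytes and Schwann cells. *Fat2* encodes a giant atypical cadherin that organises collective movement of epithelial cells. *Fam183b* encodes a small protein that has been placed with the motile cilium.

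The guide RNAs that made the deletions are shown because they define the KO clones in which the 6 genes were higher. Each is given 5′ to 3′ with the protospacer in lower case and the PAM in capitals, and each deletion needed a left and a right guide.
ΔE left: gaaacctcacgaacccgaaaAGG
ΔE right: tagcattatctgcataccagAGG
ΔP left: ggacactgcatgtttgatggAGG
ΔP right: agctacatactccaaaggagAGG
The ΔE left protospacer matched the minus strand of exon 2 of *Kdm6a* at chrX:18163390-18163409 of GRCm38. The other 3 protospacers had no match within annotated *Kdm6a* transcripts and were not placed. *Kdm6a* itself lies on the plus strand at chrX:18162575-18279936.

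Levels are given as TPM, a unit that corrects the deposited diploid fragments of a gene for transcript length and for the total of the sample. Between 49975599 and 89070402 fragments were counted per sample. *Kdm6a* was between 49.8 and 51.7 TPM in the male wt samples and between 0.0364 and 13.5 TPM in the KO clones. The ES cell identity of the samples was checked with 8 markers (*Pou5f1*, *Nanog*, *Sox2*, *Zfp42*, *Esrrb*, *Klf4*, *Tfcp2l1* and *Dppa4*), of which 8 were above 1 TPM in every sample. For feeder fibroblasts (10 genes), primitive endoderm (9 genes) and trophoblast (7 genes), no marker was at 0 in every sample of a group. Some were low, however. In male BC wt, 4 feeder fibroblast, 3 primitive endoderm and 2 trophoblast markers were under 1 TPM in both samples. In male CB wt these numbers were 1, 0 and 1. Summed over all samples, feeder fibroblast markers ranged from 15.2 to 143 TPM and primitive endoderm markers from 72.0 to 191 TPM. Trophoblast markers ranged from 40.2 to 1689 TPM, mostly through the keratins *Krt8* and *Krt18*. In these bulk samples, a change in the number of cells that express a gene and a change in the RNA per cell cannot be told apart.

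*Spp1* was the most abundant of the 6 genes in every sample. It lies on the plus strand of chromosome 5 of GRCm38 from 104435118 to 104441050. The male BC wt samples had 319 and 326 TPM, clone ΔE1 had 412 TPM, ΔE3 had 672 TPM and ΔP4 had 759 TPM. The wt mean was 323 ± 5.05 TPM (SD, n = 2) and the KO mean 614 ± 181 TPM (SD, n = 3), and the log2 fold change was 0.88 (standard error 0.23). The CB wt samples held 246 and 249 TPM, while clone ΔE2.5 held 312 TPM, ΔE2.7 held 411 TPM and ΔP2.1 held 393 TPM. Here the means were 247 ± 1.95 TPM (SD, n = 2) and 372 ± 52.7 TPM (SD, n = 3), and the log2 fold change was 0.67 (standard error 0.14). All KO clones lay above both wt samples of their cross. The smallest difference was in an exonic clone in either cross, 1.28-fold in ΔE1 and 1.26-fold in ΔE2.5, and the promoter clone ΔP4 had the largest, 2.35-fold.

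*Pdgfc*, on the plus strand of chromosome 3 from 81036416 to 81214040, was at nearly the same level in the male wt samples of a cross. Both male BC wt samples had 44.4 TPM, and the clones had 66.7 TPM (ΔE1), 82.2 TPM (ΔE3) and 63.9 TPM (ΔP4). The KO mean was 71.0 ± 9.85 TPM (SD, n = 3), and the log2 fold change was 0.64 (standard error 0.16). In CB wt it was at 25.2 TPM in both samples, and the clones held 48.9 TPM (ΔE2.5), 58.3 TPM (ΔE2.7) and 40.7 TPM (ΔP2.1). This KO mean was 49.3 ± 8.78 TPM (SD, n = 3), and the log2 fold change was 1.05 (standard error 0.17). The 6 clones thus lay between 1.44-fold (ΔP4) and 2.31-fold (ΔE2.7) above their wt mean.

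*Stat4*, on the plus strand of chromosome 1 from 51987148 to 52107189, was at 22.0 and 23.8 TPM in male BC wt. The BC clones were at 34.4 TPM (ΔE1), 30.7 TPM (ΔE3) and 43.5 TPM (ΔP4), with a mean of 36.2 ± 6.55 TPM (SD, n = 3) and a log2 fold change of 0.61 (standard error 0.16). In CB wt the level was 8.75 and 8.63 TPM, and the clones were at 18.2 TPM (ΔE2.5), 19.8 TPM (ΔE2.7) and 15.7 TPM (ΔP2.1). Their mean was 17.9 ± 2.08 TPM (SD, n = 3), and the log2 fold change was 1.12 (standard error 0.14). Levels of other chromosome 1 genes also differed from wt in the CB clones. The median level of chromosome 1 genes was 1.35-fold above wt in ΔE2.5 and 1.27-fold in ΔE2.7, but at 0.899 of wt in ΔP2.1. *Stat4* was 1.81-fold above wt in ΔP2.1, 2.09-fold in ΔE2.5 and 2.28-fold in ΔE2.7, and the part of the chromosome in these values was not tested. No clone overlapped with wt in either cross.

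*Gjb1*, at positions 101376378 to 101385629 of the X chromosome (plus strand), was at 15.2 and 13.6 TPM in male BC wt. The clones had 37.7 TPM (ΔE1), 26.3 TPM (ΔE3) and 33.4 TPM (ΔP4), with a mean of 32.4 ± 5.74 TPM (SD, n = 3) and a log2 fold change of 1.13 (standard error 0.19). The CB clones were less alike. From 1.47 and 1.61 TPM in wt, the clones reached 5.00 TPM (ΔE2.5), 10.1 TPM (ΔE2.7) and 1.84 TPM (ΔP2.1). The last value is 1.20-fold above the wt mean and rests on 54 diploid fragments, against 44 and 48 in the wt samples. The CB log2 fold change was 1.95 (standard error 0.73), and 2.37 (standard error 0.42) when ΔP2.1 was left out. Without ΔE2.7 it was 1.22.

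*Fat2*, on the minus strand of chromosome 11 from 55250609 to 55336564, was the least abundant gene of the 6. Male BC wt held 1.66 and 1.27 TPM, and the clones held 3.37 TPM (ΔE1), 2.21 TPM (ΔE3) and 3.24 TPM (ΔP4). The KO mean was 2.94 ± 0.635 TPM (SD, n = 3), and the log2 fold change was 0.96 (standard error 0.23). The CB wt samples held 0.317 and 0.339 TPM and the CB clones 0.821 TPM (ΔE2.5), 2.93 TPM (ΔE2.7) and 0.551 TPM (ΔP2.1). Only ΔE2.7 was above 1 TPM among the CB samples, so *Fat2* passed the filter on low values in that cross through this clone alone. The CB log2 fold change of 2.21 (standard error 0.80) became 1.13 without ΔE2.7 and 2.60 without ΔP2.1.

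*Fam183b* lies on the minus strand of chromosome 11 from 58792797 to 58801960, some distance from *Fat2* on the same chromosome. Male BC wt held 14.6 and 14.9 TPM, and the clones 32.9 TPM (ΔE1), 38.2 TPM (ΔE3) and 24.6 TPM (ΔP4). The mean of these clones was 31.9 ± 6.85 TPM (SD, n = 3), and the log2 fold change was 1.08 (standard error 0.26). In CB wt it was at 6.09 and 5.15 TPM, and the clones held 12.3 TPM (ΔE2.5), 25.0 TPM (ΔE2.7) and 16.8 TPM (ΔP2.1). That gave a mean of 18.0 ± 6.45 TPM (SD, n = 3) and a log2 fold change of 1.76 (standard error 0.37). In each cross the clones differed from one another by more than the wt samples did.

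**Figure D1:**
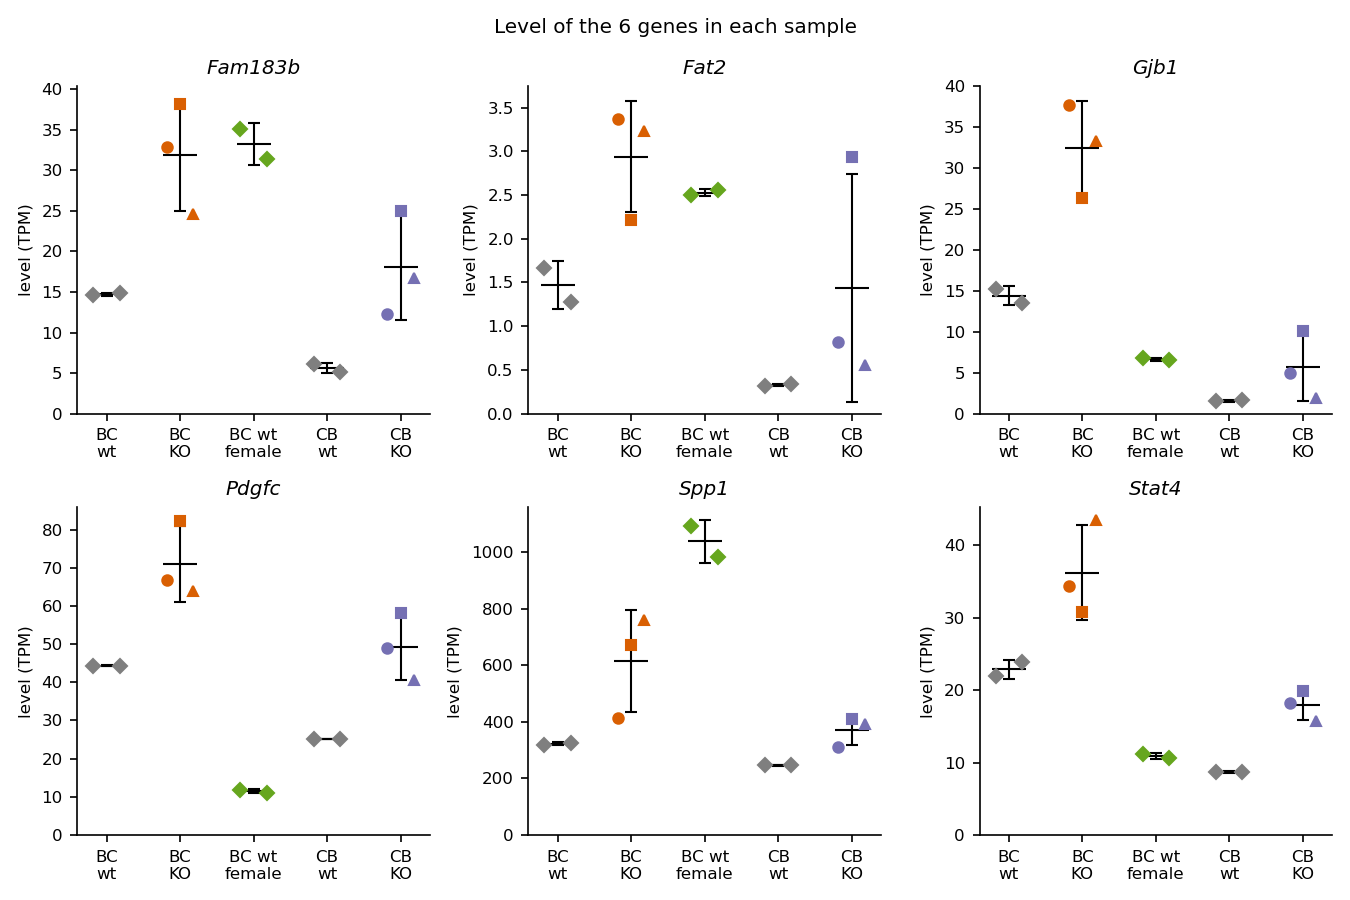
Level of each gene in TPM on the vertical axis, in the 5 groups on the horizontal axis. Points are samples, with diamonds for wt, circles for ΔE1 and ΔE2.5, squares for ΔE3 and ΔE2.7 and triangles for ΔP4 and ΔP2.1, and bars are the mean ± SD. KO clones lie above the male wt samples of their cross for all 6 genes, and the CB wt samples lie below the male BC wt samples.

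The order of the clones differed from gene to gene. Among the CB clones, ΔE2.7 had the highest level of all 6 genes, and ΔP2.1 the lowest level of *Fat2*, *Gjb1*, *Pdgfc* and *Stat4*. Among the BC clones, ΔE3 was highest for *Fam183b* and *Pdgfc* and lowest for *Fat2*, *Gjb1* and *Stat4*, although it shares its editing event with ΔE1. The range over clones was widest for *Fat2* in CB, from 1.68-fold in ΔP2.1 to 8.95-fold in ΔE2.7. Across clones of a single event, *Spp1* was 1.28-fold above wt in ΔE1 and 2.08-fold in ΔE3.

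**Figure D2:**
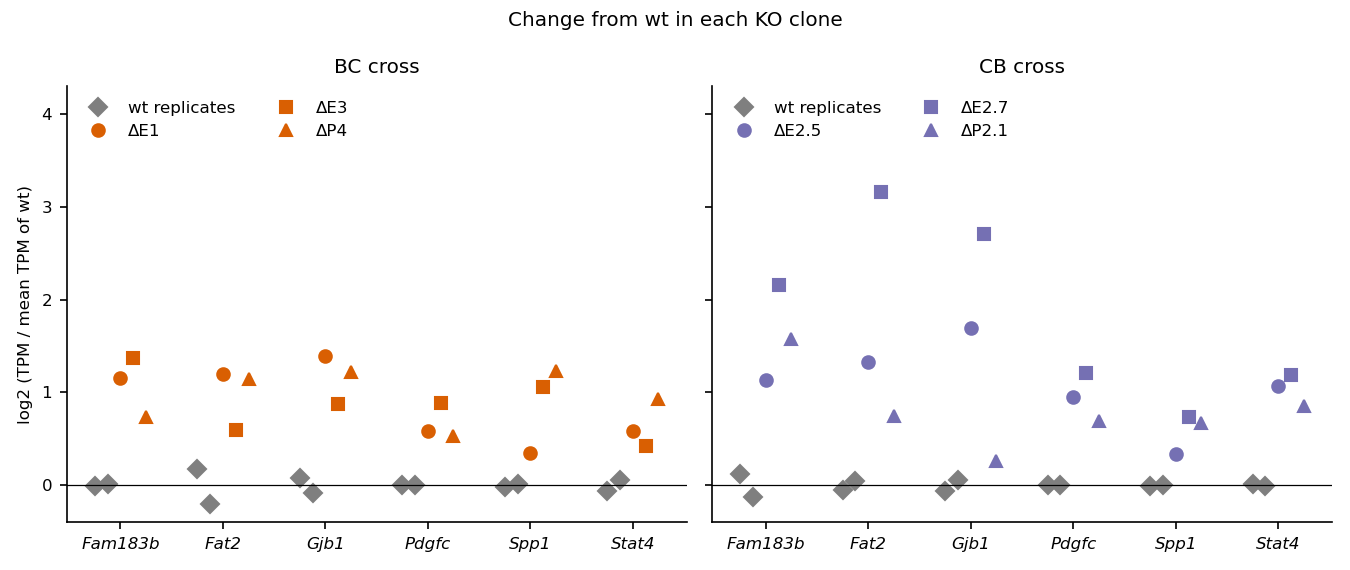
Log2 ratio of each male sample to the wt mean of its cross, with BC on the left and CB on the right. Grey diamonds are wt samples and coloured symbols the KO clones. Clone values reach from 0.26 (*Gjb1* in ΔP2.1) to 3.16 (*Fat2* in ΔE2.7), and the clones are spread more widely in CB than in BC for *Fam183b*, *Fat2*, *Gjb1* and *Pdgfc*.

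With regard to the choice of these genes, DESeq2 called 1.12% of the 13804 BC genes with an adjusted p and 1.26% of the 12728 CB genes as higher in KO, by at least 1.5-fold with an FDR under 0.05. The genes called by DESeq2 in both crosses were 8, among them the 6 described here and *Adgrd1*. For the 6 genes this call follows from their choice on the same contrast, so it is not a test of them. The quasi-likelihood test of edgeR was stricter and called 0.00724% of 13805 genes higher in BC and 0% of 13801 in CB, and none of the 6 genes was among them. In CB, 2832 genes had an unadjusted edgeR p under 0.05. KO clones lay wholly above both wt samples for 21.0% of all tested genes in BC and 14.7% in CB, and for 6 of the 6 genes in each, as their choice would give. *Adgrd1*, an adhesion G protein-coupled receptor, was at 2.76 TPM in both BC wt samples and between 4.46 and 5.09 TPM in the BC clones, and its CB levels were 0.278 and 0.216 TPM in wt and 0.492 to 1.20 TPM in the clones.

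Marker levels also differed between KO and wt for some lists and clones, and not always in the same direction. Summed ES cell markers were at 4795 to 5024 TPM in BC wt and 4847 to 6202 TPM in BC KO, and at 3369 to 3438 TPM in CB wt and 3821 to 4243 TPM in CB KO. Over all tested genes, 1.27% were higher and 1.01% lower in BC KO at an adjusted p under 0.05 by edgeR or DESeq2 with no limit on the fold, and 3.92% were higher and 4.91% lower in CB KO. Of the 8 markers, 4 (*Nanog*, *Zfp42*, *Esrrb* and *Klf4*) were higher in BC KO by this rule and 2 (*Sox2* and *Pou5f1*) in CB KO, all of them by DESeq2 only. Feeder fibroblast markers summed to 36.8 to 39.4 TPM in BC wt against 15.2 to 29.0 TPM in BC KO, and *Thy1* was lower (1 of 7 tested). In CB they summed to 91.7 to 98.0 TPM in wt and 33.5 to 143 TPM in KO, with 0 of 9 passing. Primitive endoderm markers summed to 72.0 to 76.3 TPM in BC wt and 98.8 to 106 TPM in BC KO, and to 186 to 191 TPM in CB wt and 92.4 to 176 TPM in CB KO. *Lama1*, a laminin chain, was higher in both crosses and *Foxa2* lower in CB, of 8 genes tested in BC and 9 in CB. The median log2 fold change of this list was 0.53 in BC and -0.28 in CB, so *Lama1* in CB lay opposite to its list's median. Trophoblast markers summed to 130.1 to 143 TPM in BC wt, 40.2 to 277 TPM in BC KO, 1678 to 1689 TPM in CB wt and 475 to 1188 TPM in CB KO, with 0 of 6 passing in either cross. The part of these markers in the levels of the 6 genes was not tested.

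In wt cells before any edit, all 6 genes were lower in male CB than in male BC. No p or call is given for them here, since these wt samples had entered the choice. Over all 13828 genes, 50.4% had a negative value, and 10191 had an unadjusted edgeR p under 0.05 in either direction. At least 1.5-fold and an FDR under 0.05, edgeR called 14.7% as lower in CB. The difference was widest in *Gjb1*, with a log2 fold change of -3.29 (standard error 0.12, 95% interval -3.58 to -2.99), or 9.32-fold by mean TPM. Male cells express *Gjb1* from a BL6 X chromosome in BC and a cast X chromosome in CB, so the strain of the allele cannot be told apart from the cross. Fragments of *Gjb1* mapped to the BL6 and cast genomes alike, with ratios between 0.993 and 1.00 over the samples. For *Fat2* the value was -2.23 (interval -2.61 to -1.84), and this gene passed the filter on low values through the BC samples alone. *Stat4* differed by -1.47 (interval -1.64 to -1.30) and *Fam183b* by -1.46 (interval -1.78 to -1.13). On chromosome 1, which holds *Stat4*, the median share of the BL6 allele (adjusted as described below) was 63.1% and 63.3% in male BC wt. In male CB wt it was 48.3% and 48.2%, and the part of this imbalance in the *Stat4* difference was not tested. The differences of *Pdgfc*, -0.88 (standard error 0.05), and *Spp1*, -0.45 (standard error 0.05), were smaller. No label says whether the wt samples of a cross are separate cultures or clones, so intervals and p-values that rest on them measure the spread between these samples, which may be technical.

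Beside this difference, the summed ES cell markers were also lower in CB wt than in BC wt (3369 to 3438 against 4795 to 5024 TPM), and those of feeder fibroblasts, primitive endoderm and trophoblast were higher. Their part in it was not tested. The levels of the CB KO clones can be read against BC wt as a description. *Gjb1* and *Stat4* were below both BC wt samples in all 3 CB clones, so that the CB clone with the highest *Stat4* level, 19.8 TPM, did not reach the lower BC wt sample at 22.0 TPM. *Pdgfc* and *Fam183b* were above both BC wt samples in 2 of the CB clones and below them in the other. For *Spp1*, ΔE2.7 and ΔP2.1 were above BC wt and ΔE2.5 below it, and for *Fat2*, ΔE2.7 alone was above.

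The deletion types were compared in the same way. The promoter clones ΔP4 and ΔP2.1 were set against the 4 exonic clones with the cross as a covariate, and edgeR called 0% of 14171 genes (684 had an unadjusted p under 0.05, and DESeq2 called 31). *Pdgfc* was at a lower level in the promoter clones by a log2 value of -0.35 (95% interval -0.69 to -0.01), and *Spp1* at a higher level by 0.27 (interval -0.25 to 0.78). The interval reached from -0.38 to 0.46 for *Stat4*. For *Fam183b* (-1.17 to 0.41), *Fat2* (-2.12 to 0.75) and *Gjb1* (-2.03 to 0.35) it also holds differences of more than 2-fold, so these clones do not show that the deletion types act alike.

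**Figure D3:**
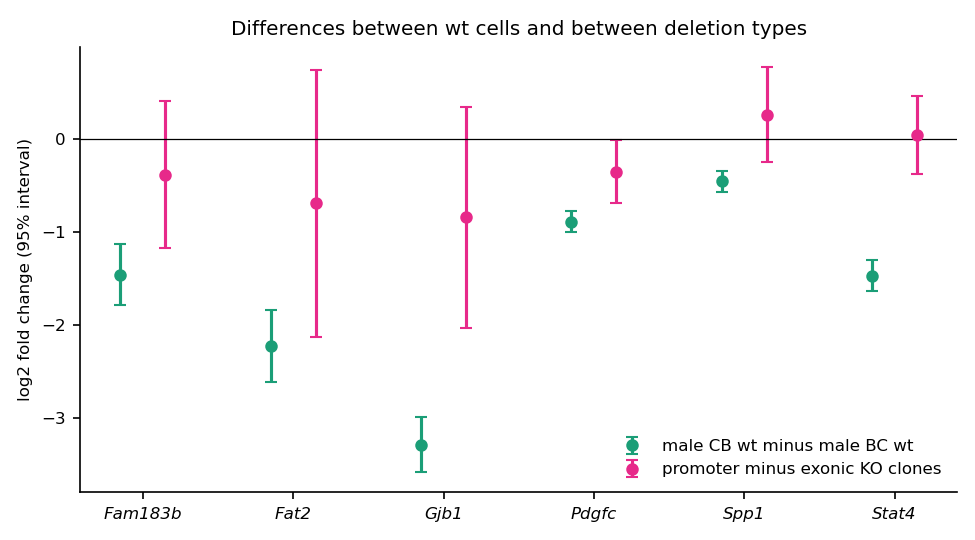
Log2 fold change with its 95% interval for each gene, in male CB wt minus male BC wt and in promoter minus exonic KO clones. The values for wt reach from *Spp1* at -0.45 to *Gjb1* at -3.29. Intervals are given as a description and not as a test, since the samples of both comparisons had entered the choice of the genes. Between the wt cells, 10191 of all 13828 genes had an unadjusted edgeR p under 0.05, in either direction.

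The female BC wt samples, which hold an intact *Kdm6a* on each X chromosome, divided the 6 genes into 2 sets of 3. *Kdm6a* itself was at 65.0 and 65.1 TPM in female wt, against 49.8 and 51.3 TPM in male BC wt. Sex and cell line cannot be told apart in this comparison. It used the male wt samples that had entered the choice, so the female levels are given without a test. *Spp1* was at 1092 and 984 TPM in female wt, 3.21-fold above male BC wt and above every KO clone. *Fam183b* was at 35.1 and 31.4 TPM, 2.26-fold above male wt and within the range of the BC KO clones. *Fat2* was at 2.497 and 2.56 TPM, 1.73-fold above male wt and also within the clones' range. The other 3 genes were lower in female than in male wt. *Pdgfc* was at 11.8 and 11.1 TPM, 3.88-fold below male wt, *Gjb1* at 6.78 and 6.48 TPM, 2.17-fold below, and *Stat4* at 11.1 and 10.6 TPM, 2.11-fold below. Summed ES cell markers were at 8427 to 8564 TPM in the female samples, higher than in any male sample. Those of feeder fibroblasts were at 76.9 to 77.9 TPM, of primitive endoderm at 124 to 133 TPM and of trophoblast at 86.2 to 97.2 TPM, against 36.8 to 39.4, 72.0 to 76.3 and 130.1 to 143 TPM in male BC wt. The part of these markers in the female levels was not tested. The median share of the BL6 allele on chromosome 1 was 52.8% and 52.9% in female wt, against 63.1% and 63.3% in male BC wt. Its part in the *Stat4* levels was not tested either.

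Per length, the order of the genes in male BC wt was *Spp1*, *Pdgfc*, *Stat4*, *Fam183b* together with *Gjb1*, and *Fat2*. *Fam183b* (14.6 and 14.9 TPM) and *Gjb1* (13.6 and 15.2 TPM) overlapped, and all other neighbours in this order were apart. The order in male CB wt was *Spp1*, *Pdgfc*, *Stat4*, *Fam183b*, *Gjb1* and *Fat2*, with no overlap. In female BC wt *Fam183b* was second, ahead of *Pdgfc* and *Stat4*, which lay side by side at 11.1 to 11.8 and 10.6 to 11.1 TPM.

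Next, the alleles were compared by fragments that hold a SNP. Allele shares were adjusted for the autosomal ratio of BL6 to cast fragments in each sample, as the authors did, and allelic levels are the diploid TPM split by these shares. *Fam183b* had 0 SNP fragments in all 12 samples, so its alleles could not be told apart. *Gjb1* is X-linked and male cells have a single copy. The male BC samples held 38 to 107 BL6 fragments of *Gjb1* each and 0 or 1 cast fragments, and the male CB samples 2 to 9 cast fragments and 0 BL6 fragments. The female samples held 9 and 8 BL6 and 18 and 8 cast fragments. In males the level of *Gjb1* is thus that of the maternal X, BL6 in BC and cast in CB.

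For the 4 other genes, the reciprocal crosses let the fit separate strain and parent of an allele in the 4 male wt samples. Cell line and cross cannot be told apart, however, so an allelic imbalance particular to a line also enters both values. By edgeR, 29.5% of 10466 genes differed between BL6 and cast alleles at an FDR under 0.05 and at least 1.5-fold. Between paternal and maternal alleles 10.9% differed, so allelic imbalance was common in these cells. Adding the female BC wt samples lowered the genes called for parent from 1139 to 126. *Fat2*, *Pdgfc* and *Spp1* were called for strain and none of the 4 genes for parent. The call of *Pdgfc* was lost without TMM normalization, where its log2 ratio of 0.57 was under the 1.5-fold limit.

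*Fat2* came mainly from the cast allele. Its adjusted BL6 share was 16.2% and 20.8% in male BC wt and 16.3% and 17.4% in CB wt, whose values rest on 32 and 25 SNP fragments. The log2 ratio of BL6 to cast was -2.04 (standard error 0.23, edgeR adjusted p = 5.2e-17), and the ratio of paternal to maternal was -0.04 (95% interval -0.48 to 0.40). *Pdgfc* leaned to BL6, with adjusted shares of 57.7% and 59.5% in BC wt and 62.0% and 59.1% in CB wt and a log2 ratio of 0.74 (standard error 0.05, edgeR adjusted p = 3.2e-43). *Spp1* did as well, at 60.8% and 62.1% in BC wt and 61.9% and 63.1% in CB wt, with a log2 ratio of 0.89 (standard error 0.03, edgeR adjusted p = 3.1e-135). Chromosome medians of the same log2 ratio were -0.03 for chromosome 11, -0.04 for chromosome 3 and -0.07 for chromosome 5. Ratios of paternal to maternal were 0.09 for *Pdgfc* (edgeR adjusted p = 0.15) and 0.06 for *Spp1* (edgeR adjusted p = 0.069). A difference between alleles in how well reads of these few SNPs mapped was not tested. For *Spp1*, fragments mapped to the BL6 genome were 1.00 to 1.11 times those mapped to the cast genome, with the ends of this range in ΔE1 and ΔP2.1.

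*Stat4* showed no strain difference past the threshold, with a log2 ratio of BL6 to cast of 0.23 (standard error 0.12, edgeR adjusted p = 0.074). The paternal allele was lower by a log2 value of -0.34 (standard error 0.12, edgeR adjusted p = 0.016), under the 1.5-fold limit. Chromosome 1 as a whole was also out of balance. The median over 616 genes of chromosome 1 was -0.41 for paternal against maternal and 0.53 for BL6 against cast. The adjusted BL6 share of *Stat4* was 60.7% and 54.3% in male BC wt, where the median of chromosome 1 was 63.1% and 63.3%, and 49.0% and 40.6% in CB wt, where the median was 48.3% and 48.2%. In female BC wt *Stat4* was at 65.5% and 71.2%, above the chromosome median of 52.8% and 52.9%.

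**Figure D4:**
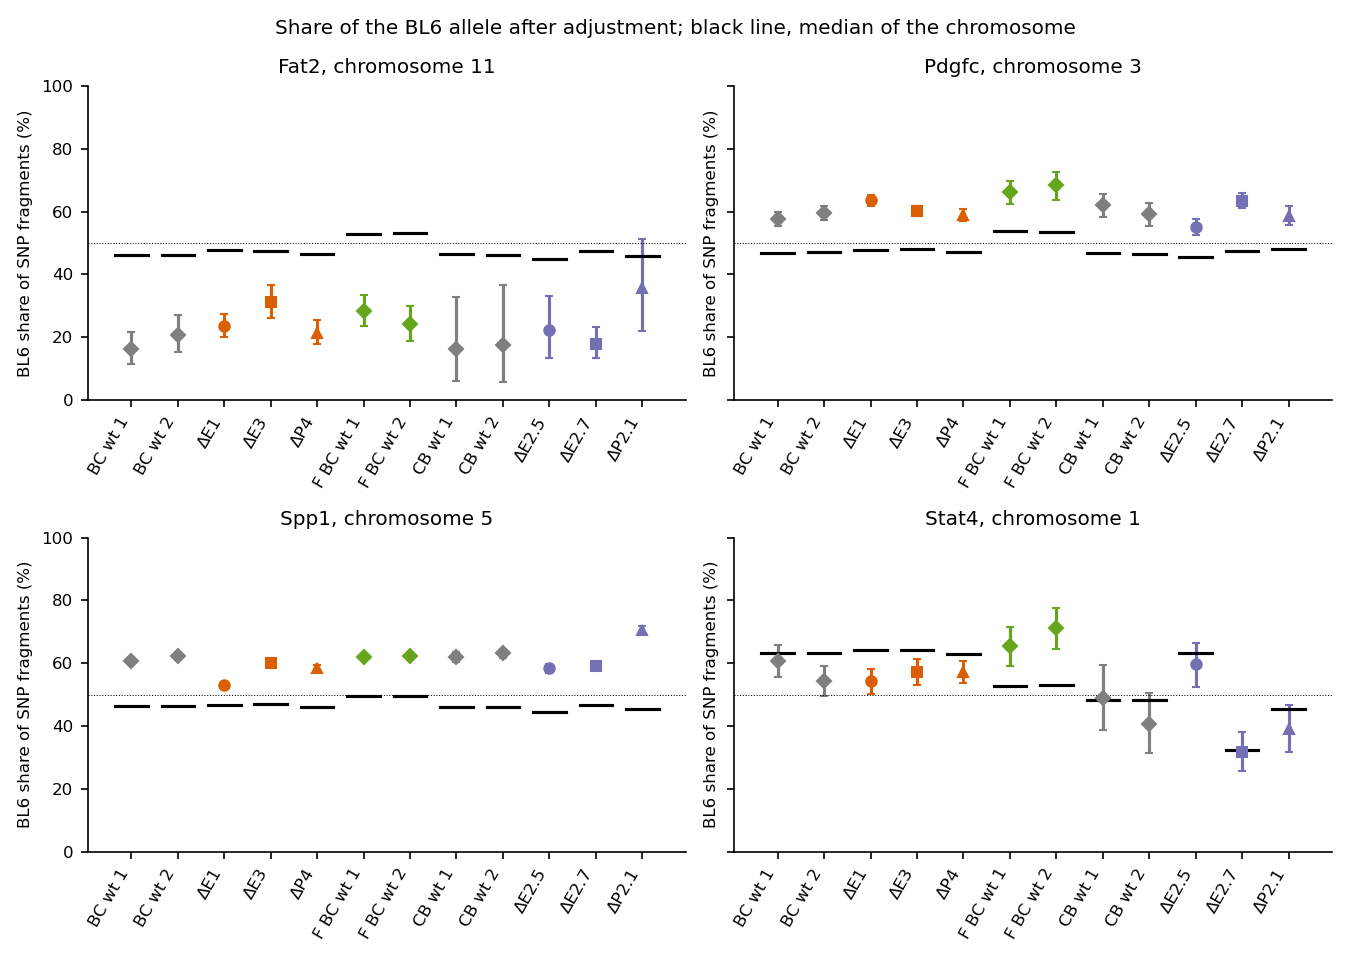
Adjusted BL6 share of SNP fragments in percent for 4 genes, in each of the 12 samples on the horizontal axis (F, female). Error bars are exact 95% binomial intervals, which cover counting error only, and black lines are the median share of the gene's chromosome. *Fat2* lies below its chromosome (with an interval in ΔP2.1 that reaches it), *Pdgfc* and *Spp1* lie above theirs, and *Stat4* moves with chromosome 1 in ΔE2.5 and ΔE2.7.

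In the KO clones, both alleles of all 4 genes were higher than their wt mean in each of the 6 clones. For *Fat2*, the less abundant BL6 allele differed by more than the cast allele in every clone. Its mean was 0.266 TPM in BC wt, and the clones had 0.793 TPM (ΔE1), 0.687 TPM (ΔE3) and 0.694 TPM (ΔP4), or 2.58-fold to 2.98-fold higher, while the cast allele was 1.27-fold to 2.15-fold higher. In CB the BL6 allele was 3.29-fold (ΔE2.5), 9.50-fold (ΔE2.7) and 3.54-fold (ΔP2.1) above wt, and the cast allele 2.35-fold, 8.84-fold and 1.30-fold. The CB values are imprecise, with 5 and 6 BL6 fragments in the wt samples. BL6 is the maternal allele in BC and the paternal allele in CB. By these point values, the allele with the larger difference was of the same strain in both crosses and not of the same parent. In every clone, however, the 95% counting interval of the adjusted BL6 share overlapped that of a wt sample of its cross. For ΔE2.7 the share was 17.9% (13.5% to 23.1%), against 16.3% and 17.4% in CB wt. Whether the alleles differed in their change was not tested.

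*Pdgfc* was higher on each allele by similar amounts. In BC the BL6 allele was 1.63-fold, 1.90-fold and 1.45-fold above wt in ΔE1, ΔE3 and ΔP4 and the cast allele 1.32-fold, 1.78-fold and 1.43-fold. In CB it was 1.76-fold (ΔE2.5), 2.42-fold (ΔE2.7) and 1.57-fold (ΔP2.1) above wt on the BL6 allele, and 2.21-fold, 2.14-fold and 1.69-fold on the cast allele. Which allele differed by more was not the same in all clones.

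For *Spp1*, the cast allele differed by more than the BL6 allele in every clone but ΔP2.1. In ΔE1 the BL6 allele was 1.10-fold above wt and the cast allele 1.55-fold. Of 12061 SNP fragments, 57.3% were BL6 (exact Clopper-Pearson 95% interval 56.4% to 58.2%), against 65.7% and 67.1% in BC wt before adjustment. In ΔP2.1 the BL6 allele differed by more, with 1.80-fold on the BL6 and 1.24-fold on the cast allele, and 73.3% of 6324 SNP fragments were BL6 (exact interval 72.2% to 74.4%), against 65.7% and 66.9% in CB wt. The adjusted median BL6 share of chromosome 5 was 46.8% in ΔE1 and 45.5% in ΔP2.1, within 1 percentage point of the wt samples. These intervals cover counting error only. In ΔE2.5 the values were 1.18-fold (BL6) and 1.40-fold (cast), in ΔE2.7 1.57-fold and 1.82-fold, in ΔE3 2.03-fold and 2.16-fold and in ΔP4 2.24-fold and 2.53-fold.

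*Stat4* differed on opposite alleles in the exonic CB clones. In ΔE2.5 the BL6 allele was at 10.8 TPM against a wt mean of 3.89 TPM, 2.79-fold higher, and the cast allele was 1.53-fold higher. In ΔE2.7 the cast allele was at 13.6 TPM against a wt mean of 4.79 TPM, 2.83-fold higher, and the BL6 allele was 1.61-fold higher. BL6 fragments were 138 of 212 in ΔE2.5, or 65.1% (exact Clopper-Pearson 95% interval 58.3% to 71.5%), and 78 of 226 in ΔE2.7, or 34.5% (exact interval 28.3% to 41.1%), both before adjustment. After adjustment, the share of *Stat4* was 59.6% in ΔE2.5 and 31.7% in ΔE2.7, beside a median for chromosome 1 of 63.2% and 32.4%. In ΔP2.1, where this median was 45.5%, the BL6 allele was 1.57-fold and the cast allele 2.00-fold above wt. The BC clones had 1.34-fold to 1.89-fold on the BL6 allele and 1.34-fold to 1.90-fold on the cast allele, with chromosome 1 at 62.8% to 64.2%.

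**Figure D5:**
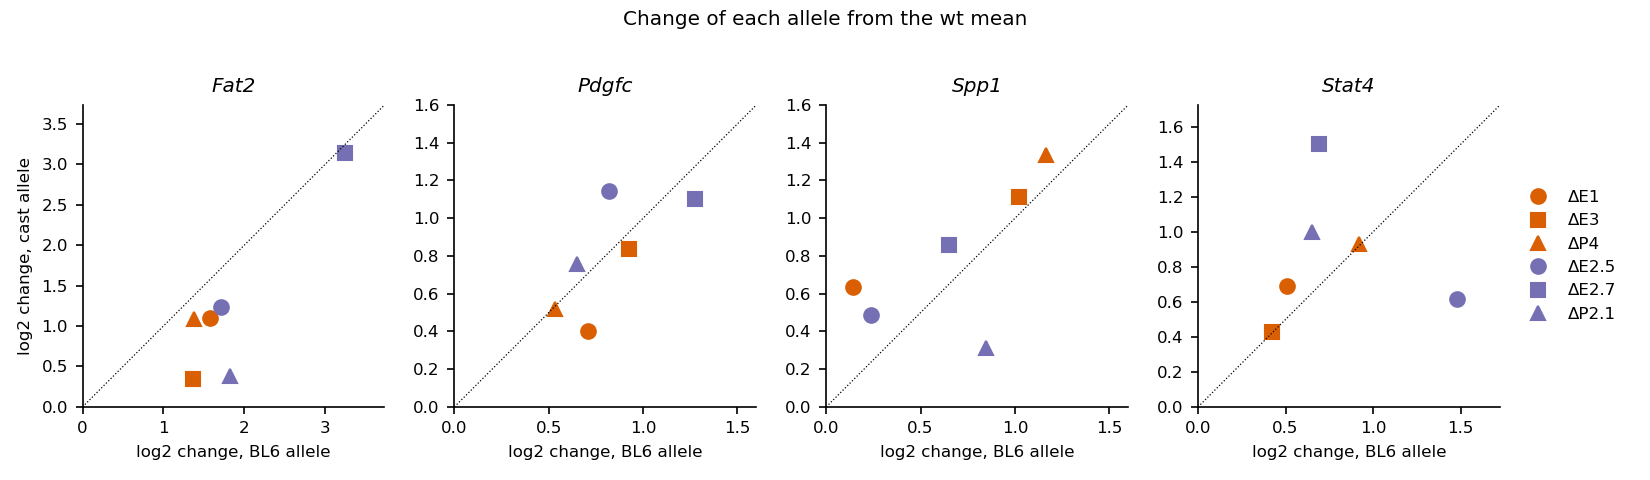
Log2 change of the cast allele (vertical axis) against that of the BL6 allele (horizontal axis) in each KO clone relative to the wt mean of its cross. The dotted line marks equal change. All points lie above 0 on both axes, *Fat2* lies below the line in every clone, and ΔE2.5 and ΔE2.7 lie on opposite sides of it for *Stat4*.

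The other genes of each pathway were then counted in the KO contrast from fixed lists without the 6 genes. By the rule used for the markers, 1.27% of all tested genes were higher and 1.01% lower in BC KO, and 3.92% higher and 4.91% lower in CB KO. The median log2 fold change over all tested genes was 0.01 in each cross. In the connexin and pannexin list, 9 genes were tested in each cross, and the median was 0.40 in BC and 0.03 in CB. *Gjb2* and *Panx2* passed the filter on low values in BC through KO clones alone, which can raise the BC median. *Gjb5* had a value of 0.51 in BC and *Gja1* of -0.18 in CB, without passing.

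In the JAK-STAT list, 0 of 20 genes passed in BC and 4 of 19 in CB. *Stat3* was higher by 0.52 and *Socs3*, a feedback inhibitor of cytokine receptors, by 0.43, while *Stat5b* was lower by a log2 value of -0.58 and *Jak1* by -0.35, all by DESeq2 only. The BC genes nearest to passing were *Tyk2* (0.60), *Il6st* (0.39) and *Stat6* (0.43). The list's median was 0.22 in BC and -0.09 in CB.

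Of the PDGF ligands, receptors and the PDGF-CC protease, 0 of 5 passed in BC and 1 of 6 in CB. The latter was *Pdgfb*, a ligand, which was lower in CB KO by a log2 value of -0.82 (40.4 TPM against 21.7 TPM), the opposite direction to *Pdgfc*. *Plat*, whose product can activate PDGF-CC, had a value of -0.92 in BC and *Pdgfa* values of 0.37 in BC and -0.43 in CB. *Nrp1* in BC (-0.21) and the receptor *Pdgfrb* in CB (-0.39) did not pass either. List medians were 0.04 in BC and -0.41 in CB.

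Among the FAT and Dachsous cadherins and their partners, 1 of 10 genes passed in each cross. *Celsr1*, a planar polarity cadherin, was higher in BC KO by 0.69 and *Dchs1*, a Dachsous ligand of FAT cadherins, lower in CB KO by a log2 value of -0.67. *Fjx1* (-0.29) and *Prickle2* (0.53) in BC and *Vangl1* (0.42) and *Prickle2* (-0.48) in CB came next without passing. The medians were -0.02 and -0.18. For osteopontin's family and receptors, 0 of 7 passed in BC and 1 of 8 in CB, the integrin subunit *Itgb5*, with 100.02 TPM in wt against 60.9 TPM in KO (log2 fold change -0.64). *Itga9* (0.55), *Itgb5* (-0.27) and *Itgb1* (-0.60) in BC and *Itga8* (-0.51) and *Itgb1* (-0.65) in CB did not pass. The medians of -0.22 in BC and -0.65 in CB lay below 0, whereas *Spp1* lay above it.

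In the list of motile cilium genes, to which *Fam183b* belongs, 0 of 15 passed in BC and 1 of 15 in CB. This was *Ccdc40*, an assembly factor of ciliary dynein arms, with 6.97 TPM in CB wt against 10.8 TPM in KO (log2 fold change 0.71). *Ccdc39* (0.84), *Rfx2* (0.36) and *Dnaic2* (0.75) in BC and *Rfx2* (0.50) and *Rsph1* (0.74) in CB were the next by p. The median was 0.36 in BC and 0.57 in CB, against 0.01 for all tested genes. Some genes passed the filter on low values through KO clones alone, which can raise these medians. They were *Rsph9* and *Ccdc103* in both crosses, and *Ccdc39* and *Dnaic2* in CB. No conclusion on the pathway is drawn from the medians.

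Genes within 250 kb of the 6 genes were 63 in the files, of which 28 were tested in BC and 27 in CB. *Zmym3* was higher by 0.42 and *Foxo4* lower by a log2 value of -0.55 in BC, both near *Gjb1*, and *G3bp1*, near *Fat2*, was higher by 0.27 in CB, each by DESeq2 only. *Glrb*, near *Pdgfc*, had a value of 1.00 in BC, *Atox1* of 0.24 in CB and *Gm2a* of -0.37 in CB, without passing. The medians were 0.06 in BC and 0.10 in CB, against 0.01 for all tested genes. Near *Fam183b*, most neighbours were olfactory receptor genes under the expression filter, and near *Spp1*, the related genes *Ibsp*, *Dmp1* and *Mepe* were also under it.

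Finally, genes with the most similar pattern were found by Pearson's r over the 10 male samples, on log2(TPM + 1) after subtraction of the mean of the cross, among 13356 genes. With so many genes and 10 samples that share a wt and KO split, high values are common, and the 6 genes were chosen to share this split, so r is given as a description. Close to *Spp1* were *Rwdd3* (0.98) and *Snrnp48* (0.95). For *Pdgfc* they were *Engase* (0.98), the metallothionein gene *Mt2* (0.97) and *Tmprss5* (0.97), and for *Fam183b* again *Mt2* (0.96), then *Pdgfc* (0.95) and *2900041M22Rik* (0.95). *Gjb1* was closest to the radial spoke gene *Rsph1* (0.98), the DNA repair gene *Xrcc3* (0.97) and *Scly* (0.96), and *Fat2* to *Xrcc3* (0.96), *Cuta* (0.96) and *Gjb1* (0.96). *Stat4* was closest to *Klf10* (0.96), *Nptx2* (0.96) and *Mdm4* (0.96). Between members of the 6, r ranged from 0.60 (*Gjb1* and *Spp1*) to 0.96 (*Fat2* and *Gjb1*).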

How the data were processed

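RNA-seq was analysed for 12 samples. Per the study, single-end reads were mapped with TopHat and bowtie (Bowtie2 2.2.5 in the submitters' processing notes) to mm10 and to a pseudo-cast genome, and uniquely mapped reads of high quality were kept. The authors deposited estimated counts of fragments per gene and sample, unnormalized and unpooled, with separate values for each genome, for both together (diploid) and for each allele by SNPs. The diploid value was at or below that of the BL6 genome alone in 98.6% of cases, so it is not a plain union of both mappings.

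TPM used the longest transcript with a RefSeq match in GENCODE M21 (23310 of 24346 genes by symbol; 2283.5 bp for the rest). Counts were rounded and tested with edgeR 4.0.16 (quasi-likelihood, TMM, R 4.3.3, limma 3.58.1) or DESeq2 1.42.0, over genes above 1 TPM in at least 1 sample, called at an FDR under 0.05 and 1.5-fold. Allele tests used genes with at least 20 SNP fragments per sample, with samples as blocks. The tests were checked on simulated counts. Other values came from Python 3.11.15 with scipy 1.17.1, numpy 2.4.6 and pandas 2.3.3. *Sh3kbp1*, *Map3k15* and *Pdha1* were left out in BC. Named genes were the 6 genes, those passing in each list, the 3 of smallest edgeR p per list and cross, the 3 of highest r to each gene and those DESeq2 called higher in both crosses. The 6 genes and the lists were chosen with earlier results of these data known. Results for some genes that these rules name are not reported here.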

Additional observations from a re-analysis of the deposited data

Results flagged for a closer look

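For some of the genes named from the lists, all KO clones lay above both wt samples in BC and below both in CB. Over all tested genes, 21.0% had all KO clones above both wt samples in BC. The share with the opposite pattern in CB, alone or together with BC, was not counted, so the named genes are given as a description. List genes that the naming rule did not reach, such as *Stat5a* and *Ifnar2*, had the same pattern. The difference between the crosses was not tested. *Foxa2*, a primitive endoderm marker, had a log2 fold change of 0.76 in BC and -1.60 in CB. *Stat5b* had 0.63 and -0.58, *Stat6* 0.43 and -0.37, *Prickle2* 0.53 and -0.48, and *Itga9* 0.55 and -0.15.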

How the results depend on the processing

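Counts of called genes depended on the method. DESeq2 called 260 genes in BC KO against 4 by edgeR, 501 in CB KO against 0, and 31 between deletion types against 0. Leaving out each sample in turn gave 1 to 4 genes in BC, 0 to 928 in CB (928 without ΔP2.1) and 0 to 3 between deletion types, and the absence of a filter gave 1 there. The 6 genes kept their direction against wt in both crosses under all alternatives run, as their choice would give. The 6 wt differences between CB and BC kept their direction in 53 of 53 values, with 4644 to 4881 genes called when a sample was left out. With the replicate number as a block, 4825 genes were called against 4773, and the numbers share no stated animal or day (r = 0.10 between same-numbered deviations, with only 2 pairs), so they were not taken as pairs. Adding female wt lowered the genes called for parent from 1139 to 126. When a sample was left out, 3097 to 3145 genes were called for strain and 1107 to 1168 for parent. The strain ratio of *Pdgfc* fell under the 1.5-fold limit without TMM (0.57). Values near 0 turned their sign. For deletion type, *Stat4* became -0.0036 with ΔE1 and ΔE3 averaged and lay between -0.29 (without ΔP4) and 0.34 (without ΔP2.1) with a clone left out, and *Fat2* between -1.79 (without ΔP4) and 0.14 (without ΔP2.1). For parent, *Fat2* lay between -0.15 (without male BC wt 1) and 0.067 (without male BC wt 2), and *Pdgfc* became -0.0033 with female wt. The cause was not tested.

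With the union of exons as length, the level in male BC wt was 21.9 TPM for *Fam183b*, 2.16 for *Fat2*, 19.8 for *Gjb1*, 45.7 for *Pdgfc*, 439 for *Spp1* and 26.2 for *Stat4*. With counts of the BL6 genome alone it was 13.6 for *Fam183b*, 43.2 for *Pdgfc*, 336 for *Spp1* and 21.4 for *Stat4*. Without the adjustment, the BL6 share in male BC wt was 21.9% for *Fat2*, 63.7% for *Pdgfc*, 66.4% for *Spp1* and 62.6% for *Stat4*. SNP fragments were few for *Fat2* and *Gjb1* in CB, which limits their allelic values.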
